A study of Mus musculus with 8 samples.

Results

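The mouse genes for translation initiation and elongation factors were followed in RNA sequencing of muscle satellite cells (SCs) from control and exercise mice. They were taken as every protein-coding row of the expression table whose gene name begins with Eif or Eef and a digit. This rule gave 67 genes of the 52636 in the table, 22027 of which are protein-coding. They were split by name into Eif2 (15 genes, including the eIF2 kinases and the eIF2B subunits), Eif3 (14), Eif4 (16, including the eIF4E-binding proteins), other Eif (10) and Eef (12, including Eef2k and the eEF1A and eEF2 methyltransferases). The rule itself reads only biotypes and names. SCs, the stem cells of skeletal muscle, were sorted from the tibialis anterior of male C57B/6J mice, 10 weeks old at the start, as cells positive for CD34 and α7-integrin and negative for CD45, Sca1, CD11b and CD31. Exercise meant 30 min of treadmill running a day at 12 m per min, on 4 days of each of 4 weeks, and control mice stayed sedentary. Each group had 4 libraries, and about 800 cells went into each library, which was prepared with a kit for single cells. The study describes its replicates as mice, but the labels do not tie a library to an animal, and some libraries were close to copies or combinations of others, as described below. The p-values therefore measure only the spread between these libraries, which may be technical.

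Translation starts when eIF2 carries the initiator tRNA to the small ribosomal subunit with the help of eIF1, eIF1A, eIF5 and eIF3. The eIF4 factors meanwhile bind and unwind the capped mRNA, with eIF4E at the cap, eIF4G as the scaffold and eIF4A as the helicase. The eEF1 and eEF2 factors then bring in aminoacyl-tRNA and move the ribosome along. Quiescent SCs are known to hold protein synthesis low, in part through phosphorylated eIF2α, the product of Eif2s1. The eIF4E-binding proteins are the best known link from mTOR signaling to the cap, and mTOR signaling in SCs was a subject of the study.

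Depth was 2339966 to 3013354 reads on genes in control libraries and 1011737 to 1200221 in exercise libraries. A gene without a read could still have had 3 reads by chance, or up to 0.000128% of a control library and 0.000297% of an exercise library, a limit that covers counting error alone because the reads were amplified. Mitochondrial transcripts took 2.09% to 15.3% of the reads of control libraries, 7.85% and 7.56% in exercise 1 and 2, 50.2% in exercise 3 and 68.7% in exercise 4. Exercise 1 and 2 were close to copies of each other, with a chi-square of their reads per degree of freedom of 3.86 against 149 to 711 in other exercise pairs. Control 4 looked like control 1 and 3 combined, and exercise 3 like exercise 1 and 4 combined. Genes of control 1 that were missing from control 3 had a median of 0.281 of their read share in control 4, and genes of control 3 missing from control 1 had 0.714. For exercise 3 the same values were 0.299 for genes of exercise 1 and 0.677 for genes of exercise 4. Counts of genes are therefore also given below with the near copies averaged and the combined libraries dropped. Among control pairs the chi-square per degree of freedom ran from 82.6 (control 3 and 4) to 544 (control 1 and 2). Control 2 and 3 were at 92.3 and were both kept in that reduced fit, so its control libraries may not be separate either. Of 12 SC markers 8 had reads, but the defining Pax7, Itga7, Cdh15 and Calcr were at 0 in all 8 libraries. The summed SC marker level was 24.2 to 41.5 FPKM in control and 31.9 to 83.6 FPKM in exercise libraries. In exercise libraries only Sdc4 and Cd34 had reads. Chodl, with 3.29 to 16.5 FPKM in control and 0 in all exercise libraries, was called lower, and no SC marker was called higher. Of 12 myofibre markers 11 had reads, with a summed level of 32732 to 57244 FPKM in control and 19592 to 59567 FPKM in exercise libraries. None of 8 immune markers had a read. All 8 fibro-adipogenic markers had reads, with a summed level of 2591 to 3588 FPKM in control and 3595 to 9403 FPKM in exercise libraries, and Gsn and Lum were called higher and Mfap5 lower in exercise. Of 7 endothelial markers 2 had reads, with the defining Pecam1 and Cdh5 at 0, and Kdr was called lower, with 0, 2994, 1669 and 1076 FPKM in control and at most 0.530 FPKM in exercise libraries. Of 6 smooth muscle and pericyte markers 3 had reads (2.88 to 46.1 FPKM summed in control, 5.72 to 89.3 FPKM in exercise), and Myh11 was called higher. All 4 tendon markers had reads (335 to 843 FPKM in control, 85.9 to 1070 FPKM in exercise), and Scx was called higher. The part of such cells in the values below was not tested.

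The exercise libraries held reads from fewer translation factor genes than the control libraries. Of the 67 genes, 45, 47, 54 and 55 had reads in control 1 to 4 and 29, 25, 32 and 25 in exercise 1 to 4. The groups did not overlap, and this was also so for all protein-coding genes, 20.5% to 29.2% of which had reads in control and 9.16% to 13.1% in exercise libraries. The reads of the 67 genes together made up 0.748%, 1.12%, 1.16% and 1.04% of all reads outside the mitochondrial genome in control 1 to 4. In exercise 1 to 4 they made up 1.11%, 1.16%, 0.803% and 0.514%. The summed share thus overlapped between the groups, while fewer genes carried it in exercise. The number of genes with reads depends on depth, which was 1011737 to 1200221 reads in exercise and 2339966 to 3013354 in control libraries. The part of depth in these counts was not tested. In such bulk samples, fewer cells of a type and less RNA per cell cannot be told apart.

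Levels are given as FPKM, the reads on a gene divided by its length and by a size of the library set by the authors. That size was 2293844 to 3984617 reads in control libraries, 1108738 to 1672056 in exercise 1 to 3 and 288190 in exercise 4. High FPKM in exercise 4 can thus rest on few reads. No library held a read of 8 of the 67 genes, 18 had reads but a mean under 1 FPKM, and 41 were tested with limma on log2(FPKM + 1). All log2 fold changes are exercise minus control on this scale, which understates the change of low genes. A gene was called lower or higher at an adjusted p under 0.05 (Benjamini-Hochberg over the 4328 genes tested). Of the 41 tested genes, 16 were lower and 4 higher, or 39.0% and 9.76%. Of all genes tested, 26.8% were lower and 8.78% higher. Under quantile normalization the members were 5 lower and 4 higher, and the balance of all genes turned, with 8.66% lower and 13.1% higher. Scaled to all reads on genes, the members were 22 lower and 1 higher, against 32.0% and 6.68% of all genes. Scaled to reads outside the mitochondrial genome, they were 19 lower and 2 higher, against 29.5% and 9.23%. The exercise libraries all lay below the control libraries in 15 members (36.6%) and all above them in 2 (4.88%), against 24.0% and 7.62% of all genes tested. The median log2 fold change of the 41 genes was -1.70, and that of all genes tested was -1.42. With every group of at most 3 reads set at the level of 3 reads, the medians were -1.34 and -0.70. These figures are descriptive, since 16 of the 41 genes reached a mean of 1 FPKM in control alone and 1 in exercise alone, and 9 were at 0 in all exercise libraries.

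The calls rested unevenly on single libraries. Eif3a, Eif3d, Eif3e, Eif3f and Eif4h (lower) and Eif3l (higher) were called whichever library was left out, and also with exercise 1 and 2 averaged, where 9.51% of all genes tested were lower and 4.05% higher. The other 14 calls were lost without control 4, without exercise 1, without exercise 2 and without exercise 3, each of which left 5 genes lower and 1 higher. In those 4 fits 8.14% to 9.58% of all genes tested were lower and 3.77% to 4.05% higher, so calls fell across the table and not among these genes alone. Without control 1, 2 and 3 and without exercise 4, respectively, 18, 10, 8 and 16 genes were lower and 3, 1, 1 and 4 higher. Of all genes tested, 37.6%, 18.1%, 14.2% and 19.5% were lower in those fits and 9.91%, 5.76%, 4.86% and 13.1% higher. With exercise 1 and 2 averaged, control 4 and exercise 3 left out, 0 genes were called by limma among the members and 0 among all 4499 genes tested, and 4 members had an unadjusted p under 0.05, all of them lower. Without exercise 3 and 4, in which most reads were mitochondrial, 10 genes were lower and 4 higher, against 16.0% and 12.8% of all genes tested. With all libraries kept, 11 of the 20 calls were lost under quantile normalization, all of them of lower genes, 12 with no filter and 7 with the replicate block. Voom ended the calls of Eif1a, Eif2s2, Eif3c and Eif3m and added those of Eef1a2, Eif2b2, Eif2s1, Eif4a3 and Eif5, all lower.

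**Figure D1:**
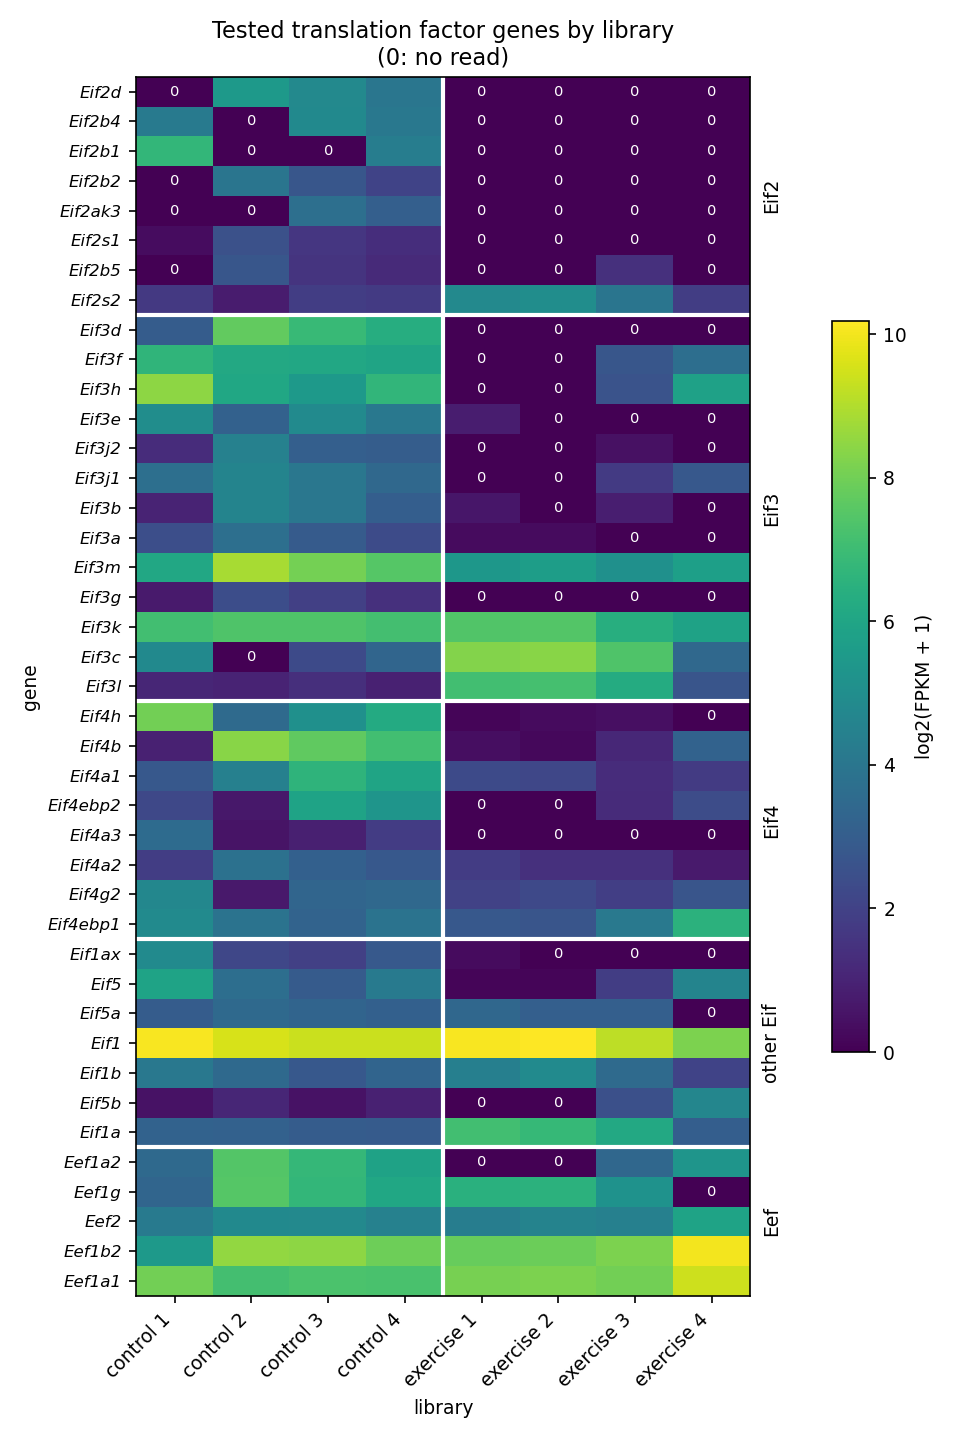
Heat map of log2(FPKM + 1) for the 41 tested translation factor genes (rows, grouped by family and sorted by change) in 4 control and 4 exercise libraries (columns), with 0 marking libraries without a read. Exercise 1 and 2 look alike, most Eif2, Eif3 and Eif4 genes are darker on the right, and Eif1 is bright throughout.

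**Figure D2:**
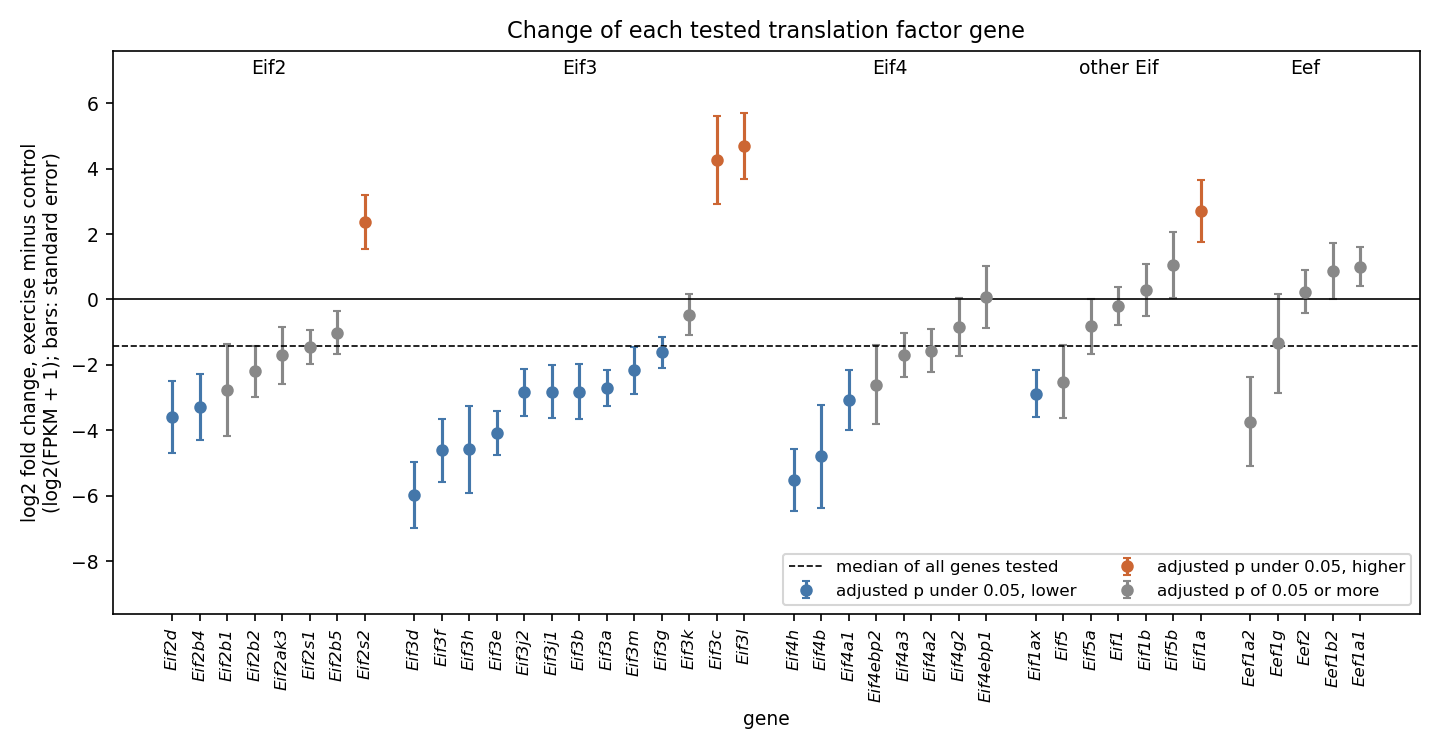
Log2 fold change (exercise minus control, on log2(FPKM + 1)) of each tested gene with its standard error, colored by call, with a dashed line at -1.42, the median of all genes tested. Eif3 holds 10 of the 16 lower genes and 2 of the 4 higher ones, and no Eef gene was called.

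Eif3 was the family with the most calls. eIF3 is a complex of many subunits that holds the small ribosomal subunit, the mRNA and the other initiation factors together. All 14 genes had reads and 13 were tested, of which 10 were lower, 2 were higher and Eif3k was not called, beside 26.8% lower and 8.78% higher among all genes tested. In 9 of them the exercise libraries all lay below the control libraries, and in Eif3l they all lay above, where 24.0% and 7.62% of all genes tested were separate in these directions. Of the 13, 6 reached a mean of 1 FPKM in control alone and 0 in exercise alone, so these counts are descriptive. The median log2 fold change of the 13 was -2.81. Within 1 complex the subunit genes thus moved in both directions.

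The widest fall on the log scale was that of Eif3d (ENSMUSG00000016554, chr15:77958998-77970824, minus strand, GRCm38), whose product can itself bind the cap of some mRNAs. Its level was 6.85, 210, 115 and 80.3 FPKM in control 1 to 4 and 0 in all 4 exercise libraries. Control 1 was far below the other control libraries, yet still above every exercise library. Against a floor of 3 reads per exercise library, the mean level was at least 46.9-fold lower in exercise, or at least 30.7-fold without control 2. The log2 fold change was -5.97 (SE 0.997, limma adjusted p = 0.00330).

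Eif3f (ENSMUSG00000031029, chr7:108934417-108942951, plus strand) and Eif3h encode the subunits with MPN domains. Eif3f had 101, 69.1, 68.4 and 60.3 FPKM in control 1 to 4 and 0, 0, 5.62 and 12.0 FPKM in exercise 1 to 4. Its control values were the most even of the lower eIF3 genes, and no exercise library came near them. Its log2 fold change was -4.61 (SE 0.95, limma adjusted p = 0.00866). Eif3e (ENSMUSG00000022336, chr15:43250040-43282736, minus strand), a further subunit of the complex, had 31.1, 7.84, 28.4 and 16.0 FPKM in control and 0.776, 0, 0 and 0 FPKM in exercise libraries. Its only exercise value came from 2 reads. The log2 fold change was -4.07 (SE 0.67, limma adjusted p = 0.00312).

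The core subunits Eif3a, the largest of the complex, and Eif3b, a scaffold, were also lower. Eif3a had 4.46, 12.2, 6.53 and 4.07 FPKM in control and 0.231, 0.242, 0 and 0 FPKM in exercise libraries, a log2 fold change of -2.71 (SE 0.56, limma adjusted p = 0.00891). Under quantile normalization Eif3a was no longer called (adjusted p = 0.254). Eif3b had 1.04, 23.5, 15.4 and 7.28 FPKM in control and 0.536, 0, 0.809 and 0 FPKM in exercise libraries, a log2 fold change of -2.81 (SE 0.83, limma adjusted p = 0.0320). Control 1 lay close to exercise 3 in Eif3b, so the gap between the groups was narrow there. Eif3b was called in 9 of 22 other settings, and its call ended with quantile normalization (limma adjusted p = 0.170), no filter and the replicate block. Eif3m, which encodes a subunit with a PCI domain, kept a sizeable level in both groups. It had 68.0, 465, 265 and 183 FPKM in control and 40.6, 49.4, 33.8 and 52.2 FPKM in exercise libraries, with a log2 fold change of -2.16 (SE 0.72, limma adjusted p = 0.0437). Eif3m was called in 8 of 22 other settings, and its call ended with quantile normalization (adjusted p = 0.155), scaling to reads outside the mitochondrial genome (0.0622), voom (0.0510), the replicate block (0.0868) and no filter (0.0769). The exercise values were even, and control 1 was again the lowest control library.

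The remaining lower genes of the family were Eif3g, Eif3h, Eif3j1 and Eif3j2, with log2 fold changes of -1.62, -4.58, -2.82 and -2.84, named here after their values were seen. Eif3h overlapped between the groups, since exercise 4 had 55.4 FPKM and control 3 had 43.8 FPKM. Eif3g was at 0 in all exercise libraries, but 0 in exercise 4 allows up to 5.25 FPKM, above the 4.28 FPKM of its highest control library. Eif3j1 and Eif3j2 are near-identical copies that counting may split, so their separate values are uncertain. Eif3i, the member below the filter, had at most 0.707 FPKM in a control library and no read in exercise libraries.

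Eif3l and Eif3c rose against the rest of the complex. Eif3l (ENSMUSG00000033047, chr15:79075223-79094400, plus strand), whose product pairs with that of Eif3k at the edge of the complex, had 1.15, 1.04, 1.62 and 0.928 FPKM in control 1 to 4. It had 135, 145, 76.2 and 5.50 FPKM in exercise 1 to 4. Every exercise library was above every control library, with exercise 4 far below the other exercise libraries and resting on 3 reads. The log2 fold change was 4.70 (SE 1.02, limma adjusted p = 0.0101). Eif3c (chr7:126546455-126566411, minus strand), a core subunit, had 27.8, 0, 3.94 and 9.08 FPKM in control and 317, 335, 165 and 9.88 FPKM in exercise libraries. Exercise 1 to 3 were above all control libraries, while exercise 4 lay below control 1. The log2 fold change was 4.26 (SE 1.35, limma adjusted p = 0.0377), and the call of Eif3c ended with scaling to all reads (adjusted p = 0.0841), voom (0.118) and no filter (0.0741). Eif3k, the partner of Eif3l, had 138, 167, 166 and 142 FPKM in control and 172, 177, 82.6 and 57.9 FPKM in exercise libraries. Its groups overlapped, and its log2 fold change of -0.47 was not called (SE 0.63, limma adjusted p = 0.540).

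**Figure D3:**
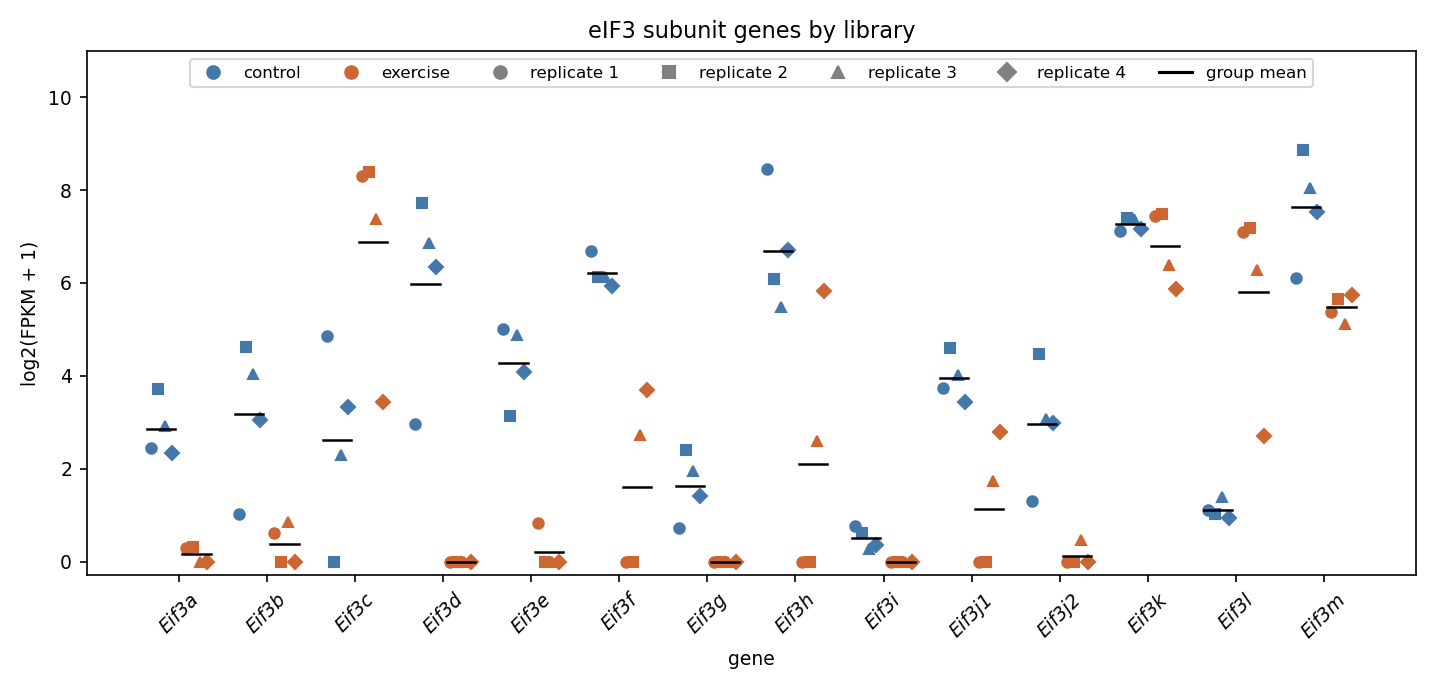
Log2(FPKM + 1) of the 14 eIF3 subunit genes in each library, with control in blue, exercise in orange, marker shapes for the replicate number and bars for group means. Eif3d and Eif3g lie at 0 in all exercise libraries, Eif3k overlaps, and Eif3c and Eif3l lie higher in exercise, with exercise 4 lowest.

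The first transcribed bases of these genes are shown because mRNAs of the translation apparatus often open with a pyrimidine tract, known as a 5′ TOP, which ties their translation to mTOR. The windows run 5′ to 3′ on the transcribed strand from 25 bases before the annotated RefSeq start to 15 after it, on GRCm38.p6. Capitals mark a tract of a C followed by at least 4 more C or T bases that opens within 10 bases of the start, searched on the transcribed strand only. The windows are Eif3f at chr7:108934390-108934429 (plus strand), Eif3l at chr15:79075198-79075237 (plus), Eif3c at chr7:126566352-126566391 (minus) and Eif3d at chr15:77970810-77970849 (minus).
Eif3f: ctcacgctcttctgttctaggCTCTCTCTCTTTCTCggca
Eif3l: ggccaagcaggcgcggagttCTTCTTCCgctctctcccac
Eif3c: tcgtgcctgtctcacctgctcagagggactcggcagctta
Eif3d: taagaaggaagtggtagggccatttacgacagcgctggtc
Eif3f, which fell, and Eif3l, which rose, both had a tract, while Eif3c, which rose, and Eif3d, which fell, had none in this window. Of the 67 genes 51 had a RefSeq start, and 18 of these (35.3%) had a tract, against 34.4% of 27025 genes and 30.7% of 32851 windows. Among tested members with a start, 3 of the 8 with a tract were lower and 1 was higher, with a median log2 fold change of -1.95. Of the 26 without a tract 10 were lower and 2 higher, with a median of -1.93. Eef1b2 and Eef2 were among the 26 without a tract. The tract is a match of letters and not a measured feature of the mRNA, so these figures do not tell which members are TOP mRNAs.

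Of the 16 Eif4 genes 8 were tested, and 3 of these were lower and 0 higher in limma, beside 26.8% and 8.78% of all genes tested. At an unadjusted p under 0.05, 5 were lower and 0 higher, and with voom on the recovered reads 4 were lower and 0 higher. The shares of all genes tested were 37.7% lower and 11.9% higher at an unadjusted p under 0.05, and 32.2% and 9.24% with voom. The lower genes were Eif4h, Eif4b and Eif4a1, which encode the helicase and cofactors that stimulate it. Eif4h (ENSMUSG00000040731, chr5:134619721-134639490, minus strand) had 257, 10.5, 33.6 and 74.9 FPKM in control and 0.108, 0.226, 0.325 and 0 FPKM in exercise libraries. The exercise values rest on at most 2 reads per library, whereas control libraries had 178 to 3269. Its log2 fold change was -5.51 (SE 0.94, limma adjusted p = 0.00355). Eif4b had 0.905, 331, 209 and 135 FPKM in control and 0.310, 0.163, 1.17 and 8.11 FPKM in exercise libraries. The groups overlapped because control 1 lay below exercise 3 and 4, opposite to Eif4h, which was highest in control 1. Eif4b had a log2 fold change of -4.80 (SE 1.56, limma adjusted p = 0.0402).

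Eif4a1, the main helicase, had 5.93, 20.4, 98.2 and 60.7 FPKM in control and 3.86, 3.47, 1.46 and 2.40 FPKM in exercise libraries. All exercise libraries were lower, though control 1 was near them, and the log2 fold change was -3.07 (SE 0.90, limma adjusted p = 0.0318). Eif4a1 was called in 11 of 22 other settings. Its call ended with quantile normalization (log2 fold change -1.88, limma adjusted p = 0.184), no filter and the replicate block. Reads may be split between Eif4a1 and a processed pseudogene, Eif4a-ps4, which had 71.7 FPKM in control 3, 31.9 FPKM in control 4 and at most 5.09 FPKM in any other library. The paralog Eif4a2 had 2.61, 12.9, 7.78 and 6.06 FPKM in control and 2.46, 1.64, 1.69 and 0.650 FPKM in exercise libraries. Its exercise values all lay below control, by little in control 1, but it was not called (log2 fold change -1.57, SE 0.66, limma adjusted p = 0.0839). Eif4a3, part of the exon junction complex, was at 0 in exercise libraries and had 0.462 to 10.7 FPKM in control (log2 fold change -1.69, SE 0.66, limma adjusted p = 0.0663). Eif4a3 was called lower in 5 of 20 other settings, among them voom (adjusted p = 0.0153) and both scalings to reads (0.0475 and 0.0421).

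The cap-binding side was thinly covered. Eif4e had at most 1.003 FPKM, Eif4g1 at most 0.784 FPKM and Eif4g3 at most 2.63 FPKM in any library, and none of them passed the filter. Eif4g3 had 1.34, 2.63, 1.76 and 1.59 FPKM in control against 0.216, 0.0567, 0 and 0 FPKM in exercise libraries, from 269 reads in control and 5 in exercise. In 5 other settings in which it was tested Eif4g3 was called lower, namely with at least 1 FPKM in 4 libraries as the filter (log2 fold change -1.39, limma adjusted p = 0.00144), with both scalings to reads, without exercise 4 and without exercise 3 and 4. In 6 other settings in which it was tested it was not called (limma adjusted p 0.0652 to 0.492). Eif4g2, which drives cap-independent initiation, had 25.4, 0.610, 9.12 and 9.78 FPKM in control and 3.06, 3.70, 2.66 and 5.46 FPKM in exercise libraries. The groups overlapped through control 2 (log2 fold change -0.84, SE 0.88, limma adjusted p = 0.438).

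The eIF4E-binding proteins hold eIF4E back until mTOR phosphorylates them. Eif4ebp1 had 28.6, 13.7, 8.52 and 13.6 FPKM in control and 5.99, 5.42, 16.4 and 93.2 FPKM in exercise libraries. Exercise 1 and 2 were below all control libraries and exercise 4 above them, so the log2 fold change of 0.07 (SE 0.95, limma adjusted p = 0.951) came with a wide spread, and without exercise 3 and 4 it was -1.23 (adjusted p = 0.157). Eif4ebp2 had 3.62, 0.565, 58.4 and 38.4 FPKM in control and 0, 0, 1.40 and 4.199 FPKM in exercise libraries. Control 3 and 4 stood far above the rest, and the gene was not called (log2 fold change -2.60, SE 1.21, limma adjusted p = 0.112). Eif4ebp3 had no read in any library.

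Of the 15 Eif2 genes 8 were tested, 2 of which were lower and 1 higher, shares close to the 26.8% and 8.78% of all genes tested. Of these 8 genes 7 reached a mean of 1 FPKM in control alone. Of the 3 subunits of eIF2 itself 1 was called. Eif2s1, the α subunit whose phosphorylation slows initiation, had 0.264, 4.81, 2.02 and 1.52 FPKM in control and 0 in all exercise libraries. Its log2 fold change of -1.45 was not called (SE 0.52, limma adjusted p = 0.0517), and the mean level was at least 2.54-fold lower against the floor of 3 reads per exercise library, or 1.495-fold without control 2. Eif2s1 was called lower in 6 of 19 other settings, with an adjusted p of 0.0153 with a pseudocount of 0.1, 0.0415 and 0.0392 with both scalings to reads and 0.00544 with voom, and also with array quality weights and without control 1. A count of 0 in exercise 4 allows up to 2.103 FPKM, above 3 of the 4 control libraries. Eif2s2, the β subunit, had 2.19, 0.725, 2.65 and 2.34 FPKM in control and 26.6, 31.2, 14.4 and 2.57 FPKM in exercise libraries. Exercise 1 to 3 were above all control libraries and exercise 4 was level with them, with a log2 fold change of 2.38 (SE 0.83, limma adjusted p = 0.0484). Eif2s2 was called in 9 of 22 other settings, and its call ended with scaling to all reads (adjusted p = 0.123), scaling to reads outside the mitochondrial genome (0.0615), voom (0.205), the replicate block (0.0890) and no filter (0.0836). The γ subunit Eif2s3x had 8 reads in control and 0 in exercise libraries and was not tested. Its counterpart on the Y chromosome, Eif2s3y, had 0 reads in control libraries and 2 reads each in exercise 2 and exercise 3, and was not tested either.

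The lower Eif2 genes were Eif2d, an initiation and recycling factor separate from eIF2, and Eif2b4, a subunit of the guanine nucleotide exchange factor eIF2B. Eif2d had 0, 44.9, 26.6 and 15.01 FPKM in control and 0 in all exercise libraries. The mean level was at least 38.0-fold lower, or at least 24.4-fold without control 2, and the log2 fold change was -3.58 (SE 1.10, limma adjusted p = 0.0351). Control 1 had no read either, so the groups overlapped at 0. Eif2b4 had 16.8, 0, 27.8 and 16.1 FPKM in control and 0 in all exercise libraries, at least 9.40-fold lower, or at least 6.79-fold without control 3, with a log2 fold change of -3.27 (SE 1.01, limma adjusted p = 0.0351). Here control 2 was the control library without a read. Eif2b1, another eIF2B subunit, had 106 and 19.2 FPKM in control 1 and 4 and no read elsewhere (log2 fold change -2.77, SE 1.40, limma adjusted p = 0.134).

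Of the kinases that phosphorylate eIF2α, Eif2ak1, Eif2ak2 and Eif2ak4 had no read in any library. Eif2ak3, which encodes PERK, the kinase of the endoplasmic reticulum, had 12.2 and 7.50 FPKM in control 3 and 4 and no read in the other libraries. The gene was seen only in control 3 and in control 4, which looked partly made of control 3, and it was not called (log2 fold change -1.70, SE 0.87, limma adjusted p = 0.138).

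Of the 10 other Eif genes 7 were tested, with 1 lower and 1 higher, where 26.8% and 8.78% of all genes tested were called. Eif1, which guards start codon choice, was the member with the highest FPKM in 7 of the 8 libraries. It had 1074, 760, 668 and 668 FPKM in control and 1082, 1166, 570 and 288 FPKM in exercise libraries. Exercise 1 and 2 were above every control library and exercise 3 and 4 below all of them, which left a log2 fold change of -0.20 (SE 0.59, limma adjusted p = 0.786).

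The eIF1A genes, which encode the factor that works beside eIF1 on the small subunit, had log2 fold changes of opposite sign. Eif1a had 8.33, 7.94, 6.85 and 6.62 FPKM in control and 136, 111, 70.5 and 7.23 FPKM in exercise libraries. Its control values were even, and exercise 4 fell among them, on 6 reads, with a log2 fold change of 2.70 (SE 0.94, limma adjusted p = 0.0484). Eif1a was called in 8 of 22 other settings and in 1 of the 8 with 1 library left out, and its call ended with scaling to all reads (adjusted p = 0.148), scaling to reads outside the mitochondrial genome (0.0675), voom (0.231), the replicate block (0.0719) and no filter (0.0865). Its paralog Eif1ax had 28.3, 3.53, 2.77 and 6.10 FPKM in control and 0.227, 0, 0 and 0 FPKM in exercise libraries, with a log2 fold change of -2.88 (SE 0.73, limma adjusted p = 0.0187). Eif1ax was called in 14 of 22 other settings, and its call ended with quantile normalization (log2 fold change -1.45, limma adjusted p = 0.185). The log2 ratio of Eif1a to Eif1ax, each with 1 added, was -1.65, 0.98, 1.06 and 0.10 in control 1 to 4 and 6.80, 6.81, 6.16 and 3.04 in exercise 1 to 4. The ratio did not overlap between the groups, although this pair was picked after its values were seen and the ratio was not tested.

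The factors that act when the subunits join were not called by limma. Eif5, which activates the GTPase of eIF2, had 59.6, 12.0, 6.57 and 17.5 FPKM in control and 0.0877, 0.0919, 2.64 and 22.9 FPKM in exercise libraries. Exercise 4 lay among the control libraries and exercise 1 and 2 had 1 read each (log2 fold change -2.51, SE 1.12, limma adjusted p = 0.0995). Eif5 was called lower in 5 of 22 other settings, namely voom (adjusted p = 0.0230), scaling to all reads (0.0288), array quality weights, without exercise 4, and without exercise 3 and 4. Eif5b, the GTPase of subunit joining, had 0.394 to 1.14 FPKM in control and 0, 0, 4.62 and 24.9 FPKM in exercise libraries (log2 fold change 1.04, SE 1.01, limma adjusted p = 0.400). Among exercise libraries it was seen in exercise 3 and 4, those with a high mitochondrial share. Eif5a, which helps the ribosome through difficult stretches, was even at 6.79 to 10.2 FPKM in control and 7.38 to 9.56 FPKM in exercise 1 to 3, with no read in exercise 4 (log2 fold change -0.82, SE 0.85, limma adjusted p = 0.431). Eif6, which keeps the large subunit apart, had up to 3.75 FPKM in control libraries, no read in exercise libraries and a mean under the filter.

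No elongation factor gene was called. Of the 12 Eef genes 5 were tested, and limma called 0 lower and 0 higher, where 26.8% and 8.78% of all genes tested were called. At an unadjusted p under 0.05 there was 1 lower gene, Eef1a2, which was called lower in 7 of 22 other settings, among them voom on the recovered reads, scaling to all reads and the replicate block. Whether the Eef genes differ from the Eif genes in their response was not tested. The 5 tested genes had a median log2 fold change of 0.24, all with a mean of at least 1 FPKM in both groups.

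Eef1a1 and its paralog Eef1a2 encode the factor that brings aminoacyl-tRNA to the ribosome. Eef1a2 is the form of adult muscle fibres and neurons, whereas Eef1a1 serves most other cells. Eef1a1 (ENSMUSG00000037742, chr9:78478449-78489151, minus strand) had 257, 141, 156 and 154 FPKM in control and 276, 292, 260 and 682 FPKM in exercise libraries. Every exercise library was above every control library, by little for control 1, yet the log2 fold change of 1.01 was not called (SE 0.59, limma adjusted p = 0.177). Eef1a2 (ENSMUSG00000016349, chr2:181147653-181157014, minus strand) had 10.3, 174, 109 and 58.0 FPKM in control and 0, 0, 9.52 and 38.3 FPKM in exercise libraries. Control 1 lay among the exercise libraries, and the log2 fold change was -3.73 (SE 1.36, limma adjusted p = 0.0550).

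Eef1a1 made up 96.2%, 44.7%, 58.8% and 72.6% of the summed FPKM of the pair in control 1 to 4. In exercise 1 to 4 it made up 100%, 100%, 96.5% and 94.7%. The log2 ratio of Eef1a1 to Eef1a2, each with 1 added, was 4.52, -0.31, 0.51 and 1.39 in control libraries (mean 1.53 ± 2.11 SD, n = 4). It was 8.11, 8.19, 4.63 and 4.12 in exercise libraries (mean 6.27 ± 2.19 SD, n = 4). The difference of 4.74 gave p = 0.0571 in an exact permutation test (two-sided), where 4 against 4 libraries cannot go below 0.0286. The single overlap was control 1, which lay above exercise 4. The difference was 4.11 (exact permutation p = 0.114) with the near copies averaged and 4.56 (exact permutation p = 0.400) with the combined libraries dropped too. Since Eef1a2 had no read in exercise 1 and 2, the added 1 sets the ratio there, and with 0.1 added instead the difference was 6.40. The mean log2(FPKM + 1) of the 12 myofibre markers was 8.59, 7.73, 7.71 and 7.93 in control 1 to 4 and 5.82, 5.90, 6.93 and 8.42 in exercise 1 to 4. In exercise libraries Eef1a2 and 9 of the 11 markers with reads were highest in exercise 4, whose library size of 288190 reads was the smallest. In control libraries 8 of the 11 were highest in control 1, where Eef1a2 was lowest. Ckm, the creatine kinase of muscle fibres, was picked from the 11 after its values were seen and went against those 8. It was lowest in control 1, as Eef1a2 was, with 519, 5573, 3646 and 2331 FPKM in control. In exercise libraries it had 92.0, 93.2, 568 and 2647 FPKM. The part of fibre RNA in the balance was not tested.

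The first bases of both genes are shown in the same way, at chr9:78481710-78481749 (minus strand) for Eef1a1, a textbook TOP mRNA, and chr2:181157001-181157040 (minus) for Eef1a2, with the tract in capitals. The RefSeq start of Eef1a1 lies 7427 bases inside the gene as the expression table places it, so the annotations differ on where the gene opens, whereas the other starts shown lie within 45 bases of the table.
Eef1a1: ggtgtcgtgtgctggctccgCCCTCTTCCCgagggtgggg
Eef1a2: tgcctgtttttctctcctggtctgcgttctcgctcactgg
Eef1a1 had the tract. The Eef1a2 window holds a run of C and T too, but it opens farther upstream of the start than the search allowed. Neither gene was called.

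**Figure D4:**
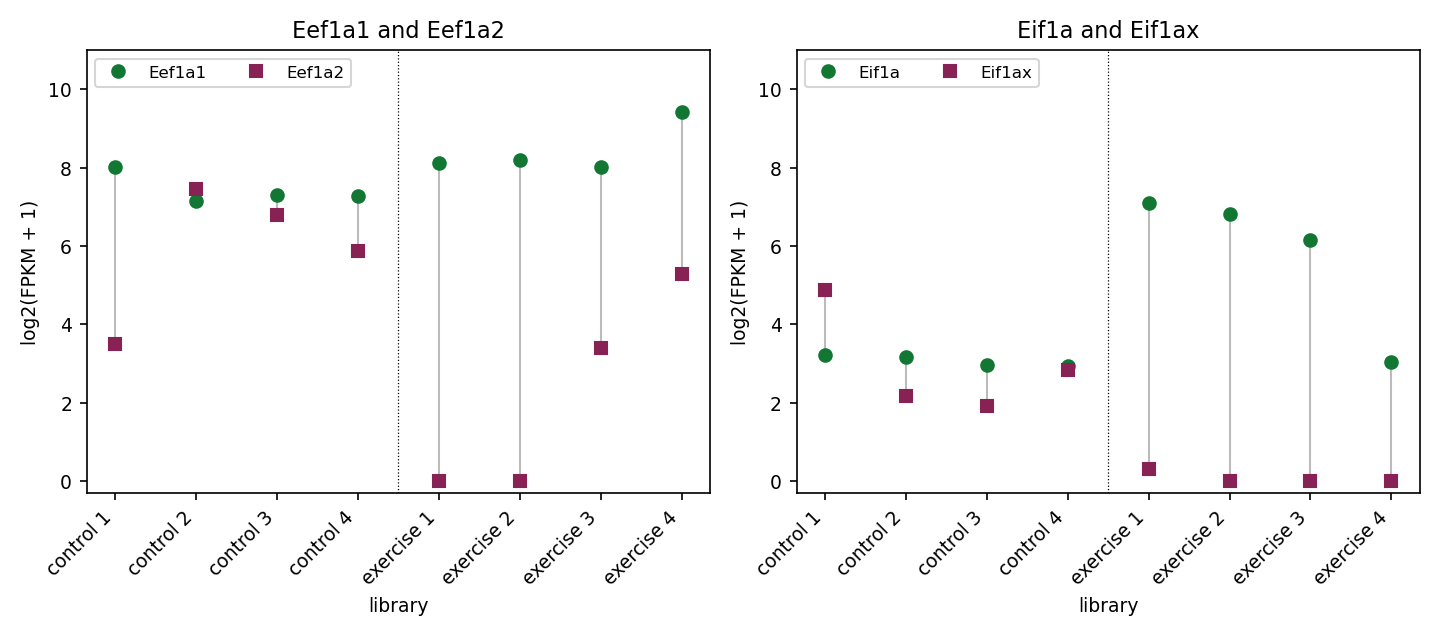
Log2(FPKM + 1) of Eef1a1 (circles) and Eef1a2 (squares) on the left and of Eif1a (circles) and Eif1ax (squares) on the right, in each of the 8 libraries, with a line joining the pair. The lines are longest in exercise 1 and 2, where Eef1a2 had no read, and control 1 shows a wide gap for Eef1a1 over Eef1a2 as well.

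The other tested elongation factors were the subunits of the exchange complex that recharges eEF1A, and eEF2, which moves the ribosome forward. Eef1b2 had 42.9, 375, 354 and 248 FPKM in control and 228, 237, 287 and 1028 FPKM in exercise libraries (log2 fold change 0.87, SE 0.86, limma adjusted p = 0.412). Eef1g had 8.89, 178, 106 and 65.3 FPKM in control and 86.9, 93.3, 35.7 and 0 FPKM in exercise libraries (log2 fold change -1.34, SE 1.52, limma adjusted p = 0.472). These 2 genes of the same complex were thus apart in exercise 4, which had the highest Eef1b2 and no Eef1g read. Eef2 kept to a narrow range in all but 1 library, with 16.7, 27.2, 27.1 and 21.3 FPKM in control and 18.9, 22.4, 20.6 and 59.5 FPKM in exercise libraries (log2 fold change 0.24, SE 0.67, limma adjusted p = 0.777). Only exercise 4 left the control range in FPKM, beside its library size of 288190 reads. With 57 reads of Eef2 it had the fewest of the exercise libraries (105, 119 and 76 in exercise 1 to 3). Eef1d had at most 4.12 FPKM and Eef2k, the kinase that inhibits eEF2, at most 0.883 FPKM in any library, and neither passed the filter.

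The make-up of the translation factor transcripts within a library does not depend on how libraries are scaled to each other. The Eif4 genes made up 12.3%, 12.1%, 15.8% and 14.9% of the summed FPKM of the 67 genes in control 1 to 4 and 0.652%, 0.549%, 1.53% and 4.63% in exercise 1 to 4. The Eif2 genes made up 4.57%, 2.18%, 2.93% and 2.91% in control and 1.04%, 1.16%, 0.976% and 0.104% in exercise libraries. Neither share overlapped between the groups. The Eif3 genes made up 27.2%, 33.1%, 27.4% and 27.1% in control and 25.9%, 26.1%, 21.9% and 8.04% in exercise libraries, which did not overlap either. Exercise 1 and 2 were close below the lowest control library, and exercise 4 far below. The Eef genes made up 12.3% to 28.0% in control and 23.8%, 23.8%, 36.2% and 73.2% in exercise libraries. The shares were not tested.

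**Figure D5:**
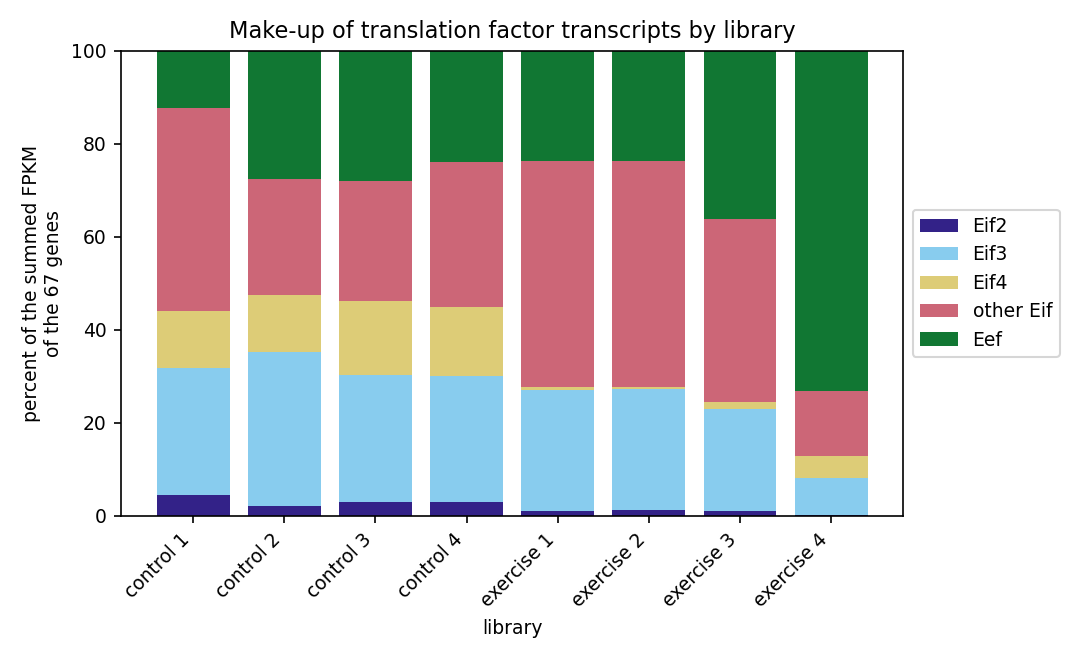
Stacked bars of the percent of the summed FPKM of the 67 genes that fell on Eif2, Eif3, Eif4, other Eif and Eef genes in each library. The Eif4 band is 12.1% to 15.8% in control and at most 4.63% in exercise libraries, and exercise 4 stands apart with 73.2% on Eef genes.

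Genes that work beside these factors were counted in the same fit, in which 26.8% of all genes tested were lower and 8.78% higher, and nothing particular to these short lists is read from their counts. Of 9 genes of termination, recycling and rescue 5 were tested, and Gspt1, which encodes the release factor eRF3, and Mcts2 were lower. Of 10 mitochondrial translation factors 4 were tested, and Tufm, the mitochondrial elongation factor Tu, was lower. Of 18 mRNA- and cap-binding partners 8 were tested. There Mknk2, a kinase of eIF4E, Paip2, a partner of poly(A)-binding protein, and Ybx1, an mRNA-binding protein, were lower, and Larp1, which binds TOP mRNAs, was higher. Ybx1 had 524 to 749 FPKM in control and 4.63 to 13.7 FPKM in exercise libraries, and Larp1 had 0 to 0.488 FPKM in control and 1.52 to 15.8 FPKM in exercise libraries. Both sets of values were separate between the groups. Of 7 stress response partners of eIF2 3 were tested and 0 were called by limma, 0 had an unadjusted p under 0.05 and 0 were called with voom. Of 22 cytosolic tRNA synthetase genes 9 were tested, and Gars was lower. The named genes of these lists are those called, chosen after their values were seen.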

How the data were processed

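SCs from 4 control and 4 exercise libraries were sequenced. The authors deposited FPKM values per gene and library, and per the labels reads were aligned with Bowtie (0.12.9), with Cufflinks (2.1.1) and HTSeq as further tools. The genome build is not given in the sources used here, and all 67 genes were found in GENCODE M21 of GRCm38, 57 with the same coordinates. Whole reads were recovered from 100% of values, within 0.001. The library size in the values was not the read total. Rows sharing a symbol were summed. Genes averaging at least 1 FPKM were tested with limma 3.58.1 (lmFit and eBayes with trend, R 4.3.3), which was tested on simulated data. The deposited unit is FPKM, so the count test of the study was not the main test, and voom on the recovered reads was an alternative. The Eef1a1 to Eef1a2 ratio was compared by an exact permutation test (scipy 1.17.1) over 70 assignments. Depth was 1011737 to 3013354 reads per library. The genes named are Eef1a1, Eef1a2, a list set by role, the 2 highest and up to 4 with the smallest p per family, and those higher in exercise. Members and lists were chosen with earlier results of these data known. Other pseudocounts, filters, scalings, weights and left-out libraries were tried. Sequences are from RefSeq on GRCm38.p6.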

Additional observations from a re-analysis of the deposited data

Results flagged for a closer look

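For all 41 tested genes and the Eef1a1 to Eef1a2 ratio, a library was marked when its gap to the nearest other library of its group of 4, divided by the range, exceeded the 95% critical value of Dixon on the log2(FPKM + 1) scale. Of 84 groups 9 were marked, and chance marks about 1 in 20, or 4.2, a rate that does not hold for groups tied at 0. Exercise 4 was the distant library in 4 of them. It was high in Eef1a1 (9.42 against 8.03 to 8.19), in Eef1b2 (10.01 against 7.84 to 8.17) and in Eef2 (5.92 against 4.31 to 4.55), and it was at 0 in Eif5a, where the others had 3.07 to 3.40. A read total of 1861 on the 67 genes and a mitochondrial share of 68.7% were the lowest and the highest of the 8 libraries. The library size in its values, 288190 reads, was also the lowest of the 8, while its 1155592 reads on genes lay within those of exercise 1 to 3. In reads, exercise 4 was the lowest exercise library in Eef1a1 (490), Eef1b2 (750) and Eef2 (57). The part of these in the marked values was not tested. Control 2 was at 0 in Eif2b4, where the others had 4.10 to 4.85. The other 4 were single libraries with 1 to 6 reads where the rest of the group was at 0, namely exercise 1 in Eif3e (0.83) and Eif1ax (0.30) and exercise 3 in Eif2b5 (1.43) and Eif3j2 (0.46).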

How the results depend on the processing

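All 20 called genes kept their direction in every setting in which they were tested. The main counts were 16 lower and 4 higher genes. No filter gave 7 lower and 1 higher (6.71% and 2.59% of all genes), quantile normalization 5 lower and 4 higher (8.66% and 13.1%), array quality weights 25 lower and 6 higher (2163 and 815 of the 4328 genes), scaling to all reads 1 higher, scaling to reads outside the mitochondrial genome 2 higher, and voom on recovered reads 20 lower and 1 higher (32.2% and 9.24%). Leaving out 1 library gave 5 to 18 lower and 1 to 4 higher genes. Averaging exercise 1 and 2 gave 5 lower and 1 higher (9.51% and 4.05%), leaving out control 4 and exercise 3 as well gave 0 and 0 with limma (4 and 0 at an unadjusted p under 0.05), and leaving out exercise 3 and 4 gave 10 lower. The median log2 fold change of the 67 genes' tested members, -1.70 as reported, was -3.80 with a pseudocount of 0.1, -0.84 with no filter and -3.43 with voom, where that of all genes tested was -2.59, -0.32 and -2.21. Quantile normalization moved the median of all genes tested from -1.42 to -0.44 and that of the members to -1.07. The cause of these shifts was not tested. The Eef1a1 to Eef1a2 difference was positive in every setting, with 4.09 to 5.73 when 1 library was left out, 6.40 with a pseudocount of 0.1 and 6.63 without exercise 3 and 4.

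Control and exercise libraries share replicate numbers, but same-numbered libraries did not deviate together (correlations of -0.02, 0.04, 0.02 and 0.02 over genes), so the numbers were not read as pairs. With the replicate block 12 genes were lower and 2 higher (18.2% and 6.24% of all genes), and the exact p of the Eef1a1 to Eef1a2 difference was 0.125, the smallest that 4 pairs allow. Not every library correlated best with its own number, since control 1 and exercise 1 did so with another.

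Among named genes that were not called, the log2 fold change changed sign under quantile normalization in Eif3k (0.13), Eif4a2 (0.11), Eif4g2 (0.42), Eif1 (0.064) and Eif5a (0.54). With array quality weights it did so in Eif3k (0.075), Eif4ebp1 (-0.67), Eif1 (0.68), Eif5b (-0.55), Eef1b2 (-0.46) and Eef2 (-0.30). Scaling to all reads turned Eif4ebp1 (-0.40) and Eef2 (-0.21), and voom turned Eif4ebp1 (-0.40), Eif5b (-0.62) and Eef2 (-0.23). Without exercise 4 it turned in Eif4ebp1 (-0.77), Eif1 (0.21), Eef1g (0.18) and Eef2 (-0.13), and without control 3 in Eif4ebp1 (-0.17). Over single left-out libraries these genes ranged from -0.77 to 0.53 (Eif4ebp1), -0.47 to 0.21 (Eif1), -2.20 to 0.18 (Eef1g) and -0.13 to 0.41 (Eef2). Without exercise 3 and 4 it turned in Eif3k (0.19), Eif4ebp1 (-1.23), Eif1 (0.53), Eif5a (0.018), Eef1g (0.61) and Eef2 (-0.13). Eif1b, outside the naming rule and called with array quality weights alone, turned in 4 of 22 settings, between -0.10 and 1.66. Of 737 values of named genes under other settings, 555 kept direction and side of the threshold, 126 lost and 29 gained a call, and 27 turned. Depth and the library size in the values limit the low genes most. Through its library size of 288190 reads, 1 read in exercise 4 is worth several times more FPKM than in a control library.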

Other observations

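Outside the 67 genes, 8 rows have names of the same form but another biotype, 7 of them processed pseudogenes. Besides Eif4a-ps4, which had 529 reads over all libraries, Eif1-ps1 had 9 reads and Eif3s6-ps1 had 2, all in control libraries, and the rest had none. Of the called genes only Eif2d overlaps another gene with reads (Rassf5, 16 reads in all libraries together). Eef1b2, which was not called, overlaps Ndufs1, which had 3546 reads against its own 12637.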
